A study of Rattus with 9 samples.

Results

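Regulatory T cells of the rat extrahepatic bile duct were read out by 10x Genomics 3' single-cell RNA sequencing, and 579 of them were found among 150379 cells (0.385%). The cells were chosen by their own counts of 8 genes. A cell was called regulatory when it held at least 1 UMI (a counted RNA molecule) of Foxp3 and at least 1 of Cd3d, Cd3e or Cd3g, with none of Il17a, Cd79b, Csf1r and Epcam. The last 4 genes mark Th17 cells, B cells, macrophages and epithelium. The 17472 cells that met the Cd3 part of this rule and held none of those 4 genes are called Cd3-positive cells below, and the regulatory cells were 3.31% of them.

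Regulatory T cells are CD4 T cells that restrain other immune cells. Foxp3 is the transcription factor that fixes their identity. They carry much of the high-affinity interleukin-2 receptor chain CD25, encoded by Il2ra, and the checkpoint receptor CTLA-4, and they make little of the interleukin-2, interferon-γ and CD40 ligand that conventional T cells use to help or attack. In transplantation they are studied as cells that can hold back rejection.

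The samples were bile ducts of Sprague-Dawley rats, and 3 groups were compared. The sham group had 3 samples of 1 library each. The LT group had received a liver transplant with ischemic injury and gave 1 sample at each of days 1, 3 and 7. The raised-flow LT group had the same transplant plus ligation of the splenic and gastroduodenal arteries, which raises hepatic arterial flow, and also gave 1 sample at each of days 1, 3 and 7. Libraries of one transplanted sample were summed, because the labels do not say whether they came from separate rats. A value per sample may therefore average several animals or repeat one, and p-values measure the spread between these samples only.

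The 20 libraries held between 1705087 and 84919892 UMIs in cells, with a median of 1950 to 7219 UMIs per cell. Most of the barcodes in LT day 3 libraries 2 and 3 exceeded the hemoglobin limit of 3% of UMIs (2479 of 2923 and 3966 of 4312). All 31 regulatory T cells of LT day 3 came from library 1, and with the hemoglobin limit lifted libraries 2 and 3 held 1 regulatory T cell among 233 and 0 among 358 Cd3-positive cells. Pairs of libraries shared at most 59 cell barcodes, and at most 1.187% of the barcodes of the smaller library. If all UMIs of transcripts that T cells do not make were carried over, such RNA would be 12.4% of the regulatory T cell UMIs at LT day 3. It would be 39.1% in sham 3 and 1.48% to 8.43% in the other samples. At LT day 3 fibroblast markers held 29.6, 8.29 and 0.804 UMIs per 10000 in regulatory, conventional CD4 and CD8 T cells (classes defined below). In sham 3 they held 102, 3.92 and 179, so the level was uneven between classes. The source of this RNA was not tested.

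The label was checked against markers that the rule did not use, and Il7r, which went against it, is given further below. Il2ra had a UMI in 395 of 579 regulatory T cells (68.2%, 95% Wilson interval 64.3 to 71.9%). The share was 201 of 708 (28.4%) in conventional CD4 T cells, which here are Foxp3-negative cells with Cd4 RNA and no Cd8a or Cd8b RNA, and 1315 of 8308 (15.8%) in CD8 T cells. The 3 classes were of like depth, with medians of 3842, 4232 and 3871.5 UMIs per cell. After every cell was thinned to 1000 UMIs the Il2ra shares were 35.3%, 8.24% and 4.61%, in the same order. At least 1 of Il2ra, Ctla4 and Ikzf2 was seen in 474 regulatory T cells (81.9%), against 59.6% of conventional CD4 T cells and 45.2% of all Foxp3-negative Cd3-positive cells. By group the regulatory share was 356 of 413 in raised flow (86.2%), 111 of 151 in LT (73.5%) and 7 of 15 in sham (46.7%, interval 24.8 to 69.9%), and 3 of 6 at LT day 1. In the sham and LT day 1 cells the share was not above the 59.6% of conventional CD4 T cells. That comparator pools all samples, with 16 of its 708 cells from sham and 9 from LT day 1. The counts below rest on Foxp3 and Cd3 RNA alone in sham and LT day 1.

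Cd4 had a UMI in 59 regulatory T cells (10.2%), and Cd8a or Cd8b in 70 (12.1%). RNA of other cell types was frequent: a macrophage marker had a UMI in 301 regulatory T cells (52.0%), an epithelial one in 139 (24.0%), a fibroblast one in 128 (22.1%) and a neutrophil one in 126 (21.8%), against 57.9%, 24.0%, 23.9% and 20.9% of conventional CD4 T cells. A shorter marker set was Cd68, Lyz2, C1qa, Cd79a, Ms4a1, S100a8, S100a9, Krt8, Krt18, Col1a1, Col3a1 and Cdh5. Of the regulatory T cells 378 of 579 held a UMI of that set, against 488 of 708 conventional CD4 T cells. The Foxp3 transcript was rare outside T cells: 41 of 127648 Cd3-negative cells held a UMI (0.0321%), among them 8 of 31279 Epcam-positive epithelial cells. These intervals and shares cover counting error only.

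Just inside the threshold, 375 regulatory T cells held exactly 1 Foxp3 UMI, while 204 held 2 or more and none held over 6. The following shares describe cells on both sides of it. Il2ra was present in 28.4% of conventional CD4 T cells with 0 Foxp3 UMIs, in 62.7% of cells with 1 and in 78.4% of cells with 2 or more. Tnfrsf9, which encodes the costimulatory receptor 4-1BB, was present in 29.1%, 60.5% and 74.5%. Cd40lg, the CD40 ligand with which helper T cells license other immune cells, went the other way, at 32.1%, 7.47% and 11.3%. Cells with more Foxp3 UMIs also tend to hold more UMIs in all, and after thinning Il2ra was at 36.1% with 1 Foxp3 UMI and 33.8% with 2 or more.

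**Figure D1:**
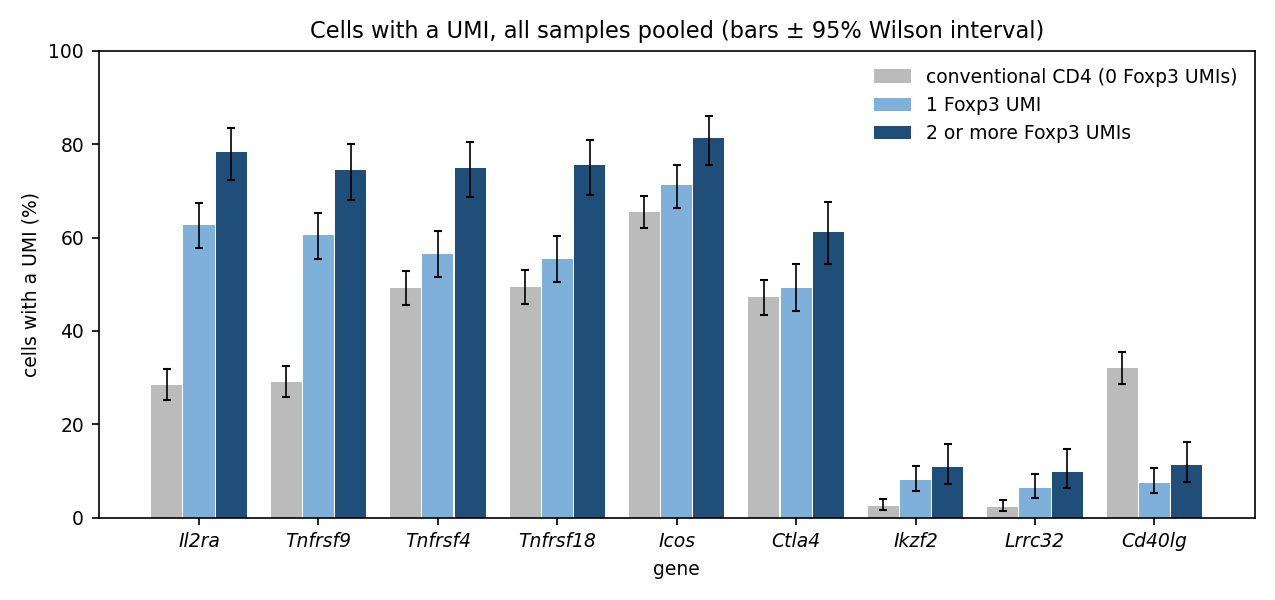
Percent of cells with a UMI of each gene (vertical axis) in conventional CD4 T cells and in regulatory T cells with 1 or with 2 or more Foxp3 UMIs, all samples pooled; error bars are 95% Wilson intervals. Il2ra stands at 28.4%, 62.7% and 78.4% across the 3 classes, and Cd40lg at 32.1%, 7.47% and 11.3%.

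The first comparison asked whether transplantation, or raised arterial flow after it, went with a different share of regulatory T cells. In the sham samples they were 3 of 76, 5 of 136 and 7 of 234 Cd3-positive cells (3.95%, 3.68% and 2.99%). The LT group had 6 among 276 Cd3-positive cells on day 1 (2.17%), 31 among 540 on day 3 (5.74%) and 114 among 6678 on day 7 (1.71%). The raised-flow group had 47 among 898 on day 1 (5.23%), 171 among 2610 on day 3 (6.55%) and 195 among 6024 on day 7 (3.24%). The 3 groups overlapped. Within each transplanted group day 3 was highest and day 7 lowest, with a single sample per day.

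The raised-flow sample had the higher share on 3 of 3 days, but the group difference did not pass the test. The mean was 5.01% ± 1.67 (SD, n = 3) against 3.21% ± 2.21 (SD, n = 3) in LT, a difference of 1.80 percentage points (exact two-sided permutation p = 0.3, 0.6 after Benjamini-Hochberg adjustment over 4 comparisons). Taking the days as pairs gave an exact p of 0.25, the smallest that 3 pairs allow. Against the sham mean of 3.54% ± 0.493 (SD, n = 3), LT differed by -0.331 points (exact permutation p = 0.9) and raised flow by 1.47 points (exact permutation p = 0.3). With 3 against 3 samples p cannot fall below 0.1. Both transplanted groups together differed from sham by 0.569 points (exact permutation p = 0.619, smallest possible 0.0238).

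After thinning to 1000 UMIs per cell the shares were 1.29% to 2.78% in sham, 0.755%, 1.89% and 0.853% in LT on days 1, 3 and 7, and 2.18%, 2.18% and 1.31% in raised flow, and the groups still overlapped.

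Libraries of one sample differed widely on day 7. At LT day 7 the 3 libraries held 2.28%, 4.91% and 0.991% regulatory T cells, and at raised-flow day 7 they held 3.75%, 0.423% and 2.56%. LT day 3 libraries 2 and 3 had 0 of 14 and 0 of 21, which allows shares of up to 21.4% and 14.3%. With the hemoglobin limit lifted, LT day 3 held 35 regulatory among 1104 Cd3-positive cells (3.17%), and the LT and raised-flow samples no longer overlapped (exact permutation p = 0.1, the smallest possible).

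As a share of all cells, regulatory T cells were at 0.0502% to 0.122% in sham. They were at 0.0435%, 0.381% and 0.333% in LT on days 1, 3 and 7, and at 0.193%, 0.967% and 0.700% in raised flow. The raised-flow samples did not overlap with sham on this scale (exact permutation p = 0.1, the smallest possible). Cd3-positive cells as a whole were 1.36% to 3.09% of cells in sham. They were 2.0%, 6.63% and 19.5% on days 1, 3 and 7 of LT and 3.69%, 14.8% and 21.6% in raised flow, so LT day 1 lay within the sham range. CD8 T cells were 26.5% to 28.9% of Cd3-positive cells in sham, 24.3%, 30.9% and 52.4% on those days of LT and 19.2%, 42.8% and 52.5% in raised flow, below sham on day 1 and above it later. There were 11.3 to 13.6 regulatory T cells per 100 CD8 T cells in sham, 8.96, 18.6 and 3.26 in LT on days 1, 3 and 7, and 27.3, 15.3 and 6.17 in raised flow.

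**Figure D2:**
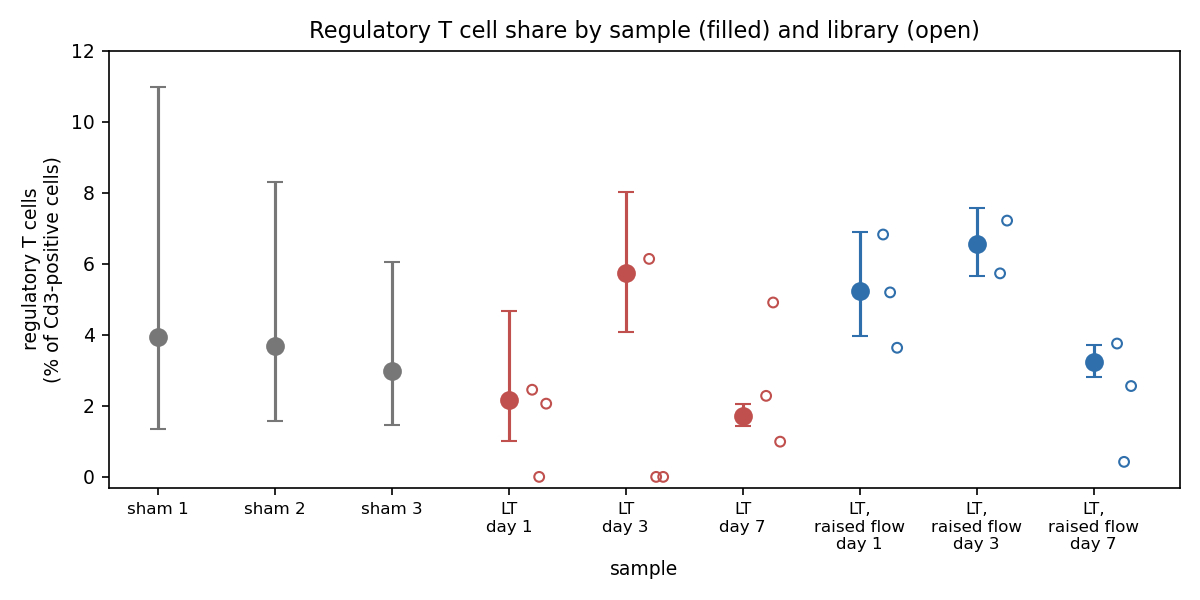
Regulatory T cells as a percent of Cd3-positive cells (vertical axis) in each sample; filled points are samples with 95% Wilson intervals and open points are the libraries of a sample. The raised-flow samples stand at 5.23%, 6.55% and 3.24% on days 1, 3 and 7 and the LT samples at 2.17%, 5.74% and 1.71%.

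The second comparison set regulatory against conventional CD4 T cells of the same sample. Counts were summed per sample and class in the 5 samples with at least 10 cells of both (LT days 3 and 7, raised flow days 1, 3 and 7). Values are CPM, counts relative to the library total scaled by TMM factors, and tests are edgeR's quasi-likelihood test with the sample as a block and Benjamini-Hochberg adjustment over all genes tested. The genes that chose the classes were left out. Of 5962 genes, 119 were higher in regulatory T cells (2.0%) and 81 lower (1.36%), 3.35% in all. The balance of directions depended on the processing, with 112 higher and 177 lower for cells with at least 2 Foxp3 UMIs and 230 higher and 280 lower with no filter on low counts.

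Of 20 genes known from regulatory T cells and listed besides Foxp3, 18 had enough counts to test, 9 were higher, 0 lower and 9 did not pass, and the median log2 difference was 0.76 against -0.02 over all genes tested. Of the 9, Ikzf2 and Lrrc32 entered the test through the regulatory cells where they were higher, so this count is a description. Il2ra (ENSRNOG00000047647) was at 599.9, 372, 562, 466 and 457 CPM in the regulatory T cells of LT days 3 and 7 and raised flow days 1, 3 and 7, and at 72.9, 107, 56.7, 134 and 93.5 CPM in the conventional cells. The ranges did not overlap, and the log2 difference was 2.38 ± 0.21 (SE, adjusted p = 0.000239). Tnfrsf9 (ENSRNOG00000036942) was at 526, 1199, 945, 960 and 837 CPM against 63.8, 367, 48.0, 227 and 217 CPM, a log2 difference of 2.46 ± 0.29 (SE, adjusted p = 0.00112). Again no regulatory value lay within the conventional range.

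Ikzf2, which encodes the transcription factor Helios, was much lower in level, at 18.6, 28.1, 33.1, 11.7 and 25.3 CPM against 5.47, 6.79, 2.18, 3.09 and 4.02 CPM. It was higher in 5 of 5 samples (log2 2.36 ± 0.39). Lrrc32, which encodes the TGF-β docking protein GARP, was at 13.2 to 27.9 CPM against 1.54 to 6.55 CPM (log2 2.29 ± 0.51). With so few conventional counts, Ikzf2 and Lrrc32 entered the test through the regulatory cells where they were higher. Their sizes are a description, and nothing is read from their tests. Capg, an actin-capping protein, was at 337 to 744 CPM against 153 to 177 CPM (adjusted p = 0.000521).

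The tumor necrosis factor receptors GITR (Tnfrsf18) and OX40 (Tnfrsf4), the interleukin-2 receptor β chain (Il2rb) and the costimulator Icos were also higher, by 1.20, 1.07, 0.93 and 0.72 on the log2 scale. Their adjusted p ranged from 0.00684 to 0.0221. Ctla4 was at 172 to 321 CPM in regulatory and 74.2 to 189 CPM in conventional cells, and its difference of 0.74 ± 0.20 did not pass (adjusted p = 0.0751). The other listed members that did not pass were Izumo1r (0.77), Entpd1 (0.34), Lag3 (0.09), Itgae (-0.40), Tigit (-0.58), Nrp1 (-0.83), Nt5e (-1.09) and Cd83 (-1.11). Ikzf4 and Gpr83 had too few counts to be tested.

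**Figure D3:**
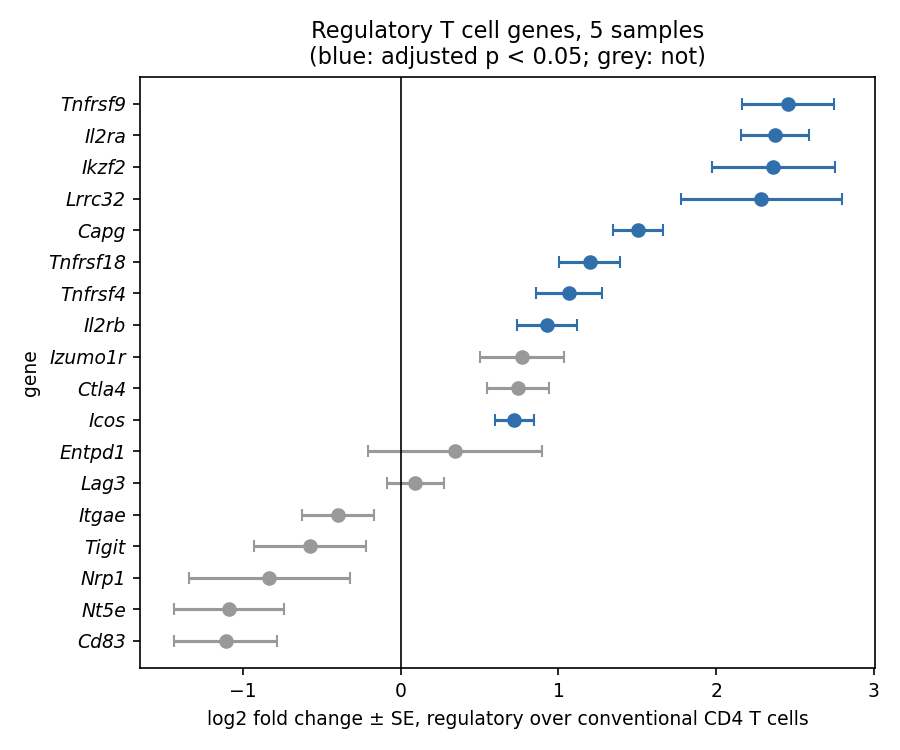
Log2 difference between regulatory and conventional CD4 T cells (horizontal axis, points ± SE, 5 samples) for the 18 tested genes known from regulatory T cells; blue points passed an adjusted p of 0.05. The 9 blue genes run from Icos at 0.72 to Tnfrsf9 at 2.46. Among them, Ikzf2 and Lrrc32 entered the test through the regulatory cells where they were higher.

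Of 13 listed cytokines and ligands of effector T cells only 3 had enough counts to test, Cd40lg, Il21 and Ifng. Il21 and Ifng were not tested in the fits on regulatory T cells alone, so they entered through the conventional cells where they were higher. Nothing is read from the count of this list or from the tests of these genes, and their values are a description. The same holds for Tnfsf8 below. Cd40lg was at 16.6 to 37.9 CPM in regulatory and 116 to 255 CPM in conventional cells (log2 -2.69 ± 0.19, adjusted p = 7.68e-05). Il21, the cytokine of follicular helper T cells, was at 0 CPM in 4 of 5 regulatory sums and at 10.8 to 20.7 CPM in the conventional ones (fitted log2 -5.04). Ifng, which encodes interferon-γ, was at 0 to 9.35 CPM against 7.72 to 49.9 CPM (log2 -3.39 ± 0.53).

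Outside that list, Tnfsf8, the CD30 ligand, was at 0 to 4.65 CPM against 13.1 to 148 CPM (fitted log2 -5.66). Areg, which encodes the tissue repair factor amphiregulin, was at 4.65, 63.1, 6.61, 5.41 and 30.2 CPM against 38.3, 247, 24.0, 66.4 and 174 CPM, lower in 5 of 5 samples (log2 -2.49 ± 0.23, adjusted p = 0.000262). Its level was highest in both classes at LT day 7.

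Of 20 genes listed for effector regulatory T cells, 13 were tested, with 2 higher and 2 lower. Prdm1 (Blimp-1) was higher by 1.34 ± 0.30 and Gata3 by 1.28 ± 0.21, while Areg and the transcription factor Bhlhe40 were lower. Gata3 was also the single one of 11 tested helper T cell transcription factors that passed. The Th1 factor Tbx21 differed by -0.42 and the follicular helper factor Bcl6 by -0.09, both without passing.

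Other groups changed in few members. Of 10 suppressive molecules, 8 were tested and 1 passed, the secreted fibrinogen-like protein Fgl2, which was lower by 0.99 on the log2 scale. Tgfb1 differed by 0.05 and Il10 by -0.35. Among 15 tested homing genes, the gut-homing integrin chain Itgb7 was higher (1.15) and the chemokine receptor Cxcr4 lower (-0.65). Among 13 tested genes of interleukin-2 and STAT5 signaling, Il2ra, Il7r and Il2rb were higher, and their median was 0.37. Of 13 tested genes of resting T cells, Il7r (1.43) and Cd27 (0.69) were higher. Il7r, usually described as low in regulatory T cells, went against the label here. It was higher in 17 of 17 alternative fits and called in 14 of them.

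Among the 10 genes with the largest increases that moved the same way in every sample, several are not usually listed for these cells. The eotaxin receptor Ccr3 was at 6.61 to 60.5 CPM against 0 to 4.63 CPM (log2 3.59 ± 0.38). Ccr3 also entered the test through the regulatory cells, so its size is a description. Cd80, the B7 ligand of CD28 and CTLA-4, was at 52.3 to 107 CPM against 4.36 to 18.2 CPM (log2 2.42 ± 0.22, adjusted p = 0.000239). Upb1 (3.85), Neb (3.03), Bex4 (2.65) and Cpe (2.37) made up the rest beside the genes above. Upb1, Bex4 and Cpe had enough counts in 14 alternative fits and Neb in 13, much as Ccr3 had in 14. Their sizes are likewise a description, and nothing is read from their tests. Of the 188 called genes with a symbol, 171 moved the same way in all 5 samples, 108 up and 63 down. The calls came from these same 5 pairs, so this count follows largely from the call and does not measure reproducibility.

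**Figure D4:**
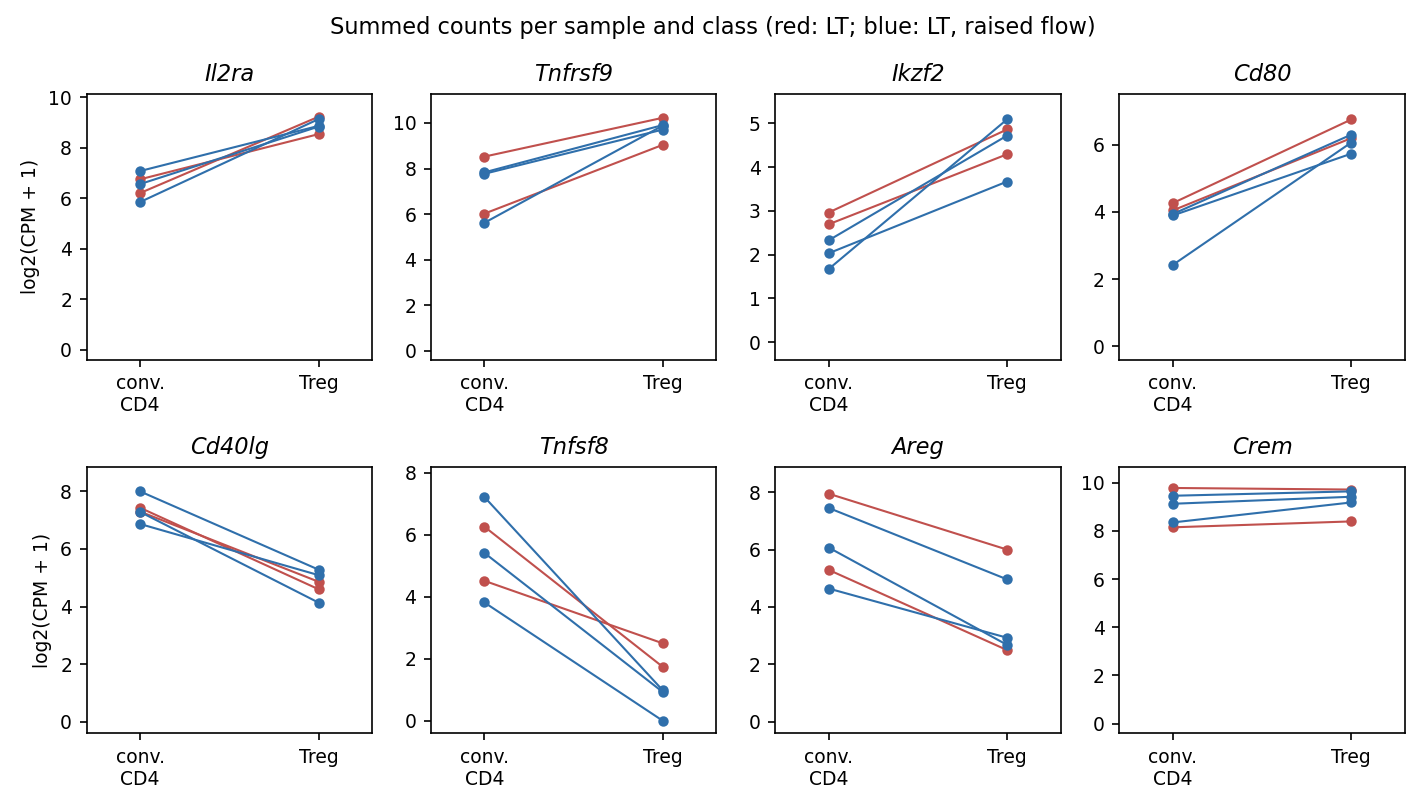
Level in log2(CPM + 1) (vertical axis) of 8 genes in conventional CD4 and regulatory T cells; each line joins both classes of 1 sample. Il2ra, Tnfrsf9, Ikzf2 and Cd80 lie higher and Cd40lg, Tnfsf8 and Areg lower in the regulatory cells of 5 of 5 samples, and Crem is near level. Ikzf2 and Tnfsf8 entered the test through the class where they were higher and are shown as a description.

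Some of the largest decreases are genes that other cells are known for. Siglech, a receptor of plasmacytoid dendritic cells, was at 0 to 1.95 CPM in regulatory and 6.17 to 89.5 CPM in conventional cells, Blnk, a B cell adaptor, at 0 to 4.68 against 1.54 to 96.0 CPM, and the secreted phospholipase Pla2g2a at 0 to 2.92 against 1.54 to 114 CPM. With so few regulatory counts, Siglech, Blnk and Pla2g2a entered the test through the conventional cells where they were higher, so their values are a description. In the rat, macrophages and dendritic cells also carry CD4. Summed over 10 fibroblast markers, the 5 conventional sums held 0.512 to 52.2 UMIs per 10000 and the regulatory sums 0.852 to 29.6. For 10 macrophage markers the ranges were 1.06 to 9.18 and 2.28 to 8.06. Paired by sample, these were higher in the regulatory cells in 4 of 5 samples and lower at LT day 7 (3.40 against 9.18). The 8 MHC class II genes were at 4.39, 24.6, 23.5, 4.12 and 19.7 UMIs per 10000 in the conventional cells of LT days 3 and 7 and raised flow days 1, 3 and 7, and at 1.98, 16.1, 2.87, 4.53 and 14.6 in the regulatory cells, lower in 4 of 5 samples. Their median log2 difference was -0.92 over 5 tested genes, with 0 called by edgeR and 3 at an unadjusted p under 0.05. The fibroblast median was -1.92 over 5 tested, with 0 called by edgeR and 1 at an unadjusted p under 0.05, and 1 of 4 tested neutrophil markers, Mmp9, was higher (1.88). The part of these cells in the difference was not tested. With every cell that held a UMI of the shorter marker set above left out, 62 of 3207 tested genes were called in 4 samples.

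Most Gzma RNA lay in cells with Cd8 RNA. Gzma, which encodes granzyme A of killer T cells, was higher by 4.87 on the log2 scale (adjusted p = 7.68e-05), at 0, 830, 29.8, 27.1 and 299 CPM against 0 to 25.2 CPM. It was seen in only 32 regulatory T cells, and 686 of its 701 UMIs lay in 21 cells that also held Cd8a or Cd8b. In a fit chosen after seeing the data, without the 70 regulatory T cells that held Cd8 RNA, Gzma differed by -0.44 (adjusted p = 0.82), whereas Il2ra differed by 2.43, Tnfrsf9 by 2.57 and Cd40lg by -2.46, and 197 genes were called. The list of 12 CD8 and NK cell markers, Gzma among them, moved with it. It includes Cd8a and Cd8b, which the conventional cells lack by their rule, so its sum is a description only. Summed, they were at 30.9 UMIs per 10000 in the regulatory and 11.9 in the conventional cells of LT day 7, at 5.87 and 1.06 in those of raised flow day 1 and at 1.76 and 1.59 on day 3. They were also higher in the regulatory cells at raised flow day 7, and lower at LT day 3, at 1.38 against 2.0. Of 7 tested, Gzma was called higher and the NK receptor Klrd1 lower (-1.99), 6 had an unadjusted p under 0.05, and the median was 1.06. Whether cells with both Foxp3 and Cd8 RNA were single cells or pairs was not tested.

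Of 15 tested costimulation genes 5 were higher and 1, the inhibitory ligand Cd200, was lower (-1.45). Among 16 tested genes of hypoxia and glycolysis the lactate dehydrogenase Ldha was lower by a small amount (-0.39), and among 18 immediate early genes the AP-1 factor Junb was higher (0.39) and the phosphatase Dusp2 lower (-1.15). Several calls depended on the processing. Ldha was called in 5, Cxcr4 in 8, Junb in 9, Il2rb and Isg15 in 10, Prdm1 in 11, Tnfrsf4 in 12 and Icos in 13 of 17 alternative fits. Lrrc32 was called in 6 of 9, Cd200 in 8 of 15 and Bhlhe40 in 11 of 16, and the smallest log2 difference of Il2rb was 0.189, whereas Il2ra, Tnfrsf9, Capg, Cd80 and Cd40lg were called in 17 of 17, Cd40lg with the opposite sign against CD8 T cells.

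Several programs had no called member. The 14 tested genes of the cyclic AMP pathway had a median of -0.03, with 0 called by edgeR and 2 at an unadjusted p under 0.05. Crem, the cyclic AMP responsive modulator followed in this study, was at 335, 839, 579, 682 and 796 CPM in regulatory and 282, 878, 325, 557 and 702 CPM in conventional cells. It was higher in 4 of 5 samples by 0.29 ± 0.12 without passing (adjusted p = 0.3). The 19 tested proliferation genes had a median of 0.09, with 0 called by edgeR and 2 at an unadjusted p under 0.05. Mki67 or Top2a had a UMI in 121 of 579 regulatory (20.9%, interval 17.8 to 24.4%) and 154 of 708 conventional T cells (21.8%, interval 18.9 to 24.9%). By sample, the regulatory share with either gene was 12.9% and 14.0% at LT days 3 and 7 and 21.3%, 31.6% and 17.4% at raised flow days 1, 3 and 7. Heat shock genes (11 tested) had 0 called by edgeR and 2 at an unadjusted p under 0.05, and interferon response genes had 1 of 16, Isg15.

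Against CD8 T cells, 589 of 7357 genes were called (8.01%), 4.4% higher and 3.6% lower. Of the 18 tested regulatory T cell genes 10 were higher and 2 lower. Il2ra was higher by 2.97 ± 0.15 and Tnfrsf4 by 4.15 ± 0.44, Ctla4 passed at 0.85 ± 0.17 (adjusted p = 0.00699), and Nt5e (-1.23) and Tigit (-1.06) were lower. Izumo1r, the folate receptor 4 known from regulatory T cells, was higher by 4.08 ± 0.21. Cd40lg, lower than in conventional CD4 T cells, was higher than in CD8 T cells (log2 1.36, adjusted p = 0.0107). Against all Foxp3-negative Cd3-positive cells, 3.53% of 9834 genes were higher and 7.96% lower, and of the 18 regulatory T cell genes 11 were higher and 1 lower.

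Within regulatory T cells, day 7 was compared with day 1 in the 5 samples with at least 10 such cells. LT day 1 had 6 cells and dropped out, so day 1 was the raised-flow sample alone, and the fit had 1 residual degree of freedom before sharing the spread across genes. Its adjusted p-values assume that this lone sample of 47 cells varied like the others, so they do not separate day 1 from that sample. Of 5381 genes, 28 were called (0.52%), 19 higher (0.353%) and 9 lower (0.167%), while DESeq2 called 2.

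Against that sample, Vim was lower and Lag3 higher at day 7, calls that depended on the processing. Lag3, an inhibitory receptor for MHC class II, was at 190 CPM at day 1, 132 and 437 CPM at day 3 and 1848 and 789 CPM at day 7 (log2 2.83 ± 0.53, adjusted p = 0.00148). Vim, which encodes the filament protein vimentin, was at 1856 CPM at day 1 and 715 and 655 CPM at day 7 (log2 -1.43 ± 0.32, adjusted p = 0.0137). In 9 alternative fits both kept their direction, while Lag3 was called in 5 and Vim in 2, with adjusted p up to 1.0.

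Lag3 was the single one of 16 tested regulatory T cell genes that passed. Il2ra differed by -0.42, Ctla4 by 0.11 and Tnfrsf9 by 0.22 between the days. Crem differed by 0.77 ± 0.39 (adjusted p = 0.923).

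Markers of other cells moved with the day. The neutrophil genes S100a8 and S100a9 were lower (log2 -5.41 and -5.24), and the MHC class II genes RT1-Da, RT1-Bb and Cd74 were higher by 3.48, 3.78 and 3.25. Cxcl9, Cxcl10 and Apoe, known from macrophages among other cells, and Ccl4, a chemokine of activated T cells, NK cells and macrophages, were higher by 4.41 to 8.87. The upper end is Cxcl9, at 0 CPM in the day 1 sample, so its size is a fitted value. Apoe and Ccl4 were at 3.22 CPM and RT1-Bb at 6.45 CPM in that sample, near the floor, so their sizes are uncertain too. Summed over 10 neutrophil markers the regulatory T cells held 9.08 UMIs per 10000 at raised flow day 1, with 4 markers at 0, and 1.15 and 0.387 at day 7 of LT and raised flow. The 10 macrophage markers went from 2.28 to 3.40 and 8.06, the 9 B cell markers from 0.173 to 6.60 and 1.00, and the 9 endothelial markers from 0.104 to 0.0653 and 1.53. The immunoglobulin gene Ighm (3.04) and the endothelial genes Plvap (3.58) and Tm4sf1 (4.34) were called higher. Plvap was at 6.45 CPM at day 1, and at 4.63 and 79.2 CPM at day 7 of LT and raised flow, so LT day 7 was not higher. Gzma and Nkg7 were higher at day 7 by 3.76 and 3.47, and at day 7 the cells with Cd8 RNA held 348 of 355 Gzma UMIs in LT and 303 of 307 in raised flow. The part of carried-over RNA was not tested.

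When regulatory T cells with Cd8 RNA were left out, 5 genes were called between the days. Lag3 (2.70, adjusted p = 0.399) and Vim (-1.44, adjusted p = 0.399) kept their direction without passing, as did Nkg7 (4.16, adjusted p = 0.523), and S100a8 still passed (-6.01, adjusted p = 0.00496). The chemokine Ccl5 passed in both fits but with very different sizes, 1.85 with all cells (adjusted p = 0.0126) and 6.80 without those with Cd8 RNA, and it was called in 4 of 9 alternatives.

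**Figure D5:**
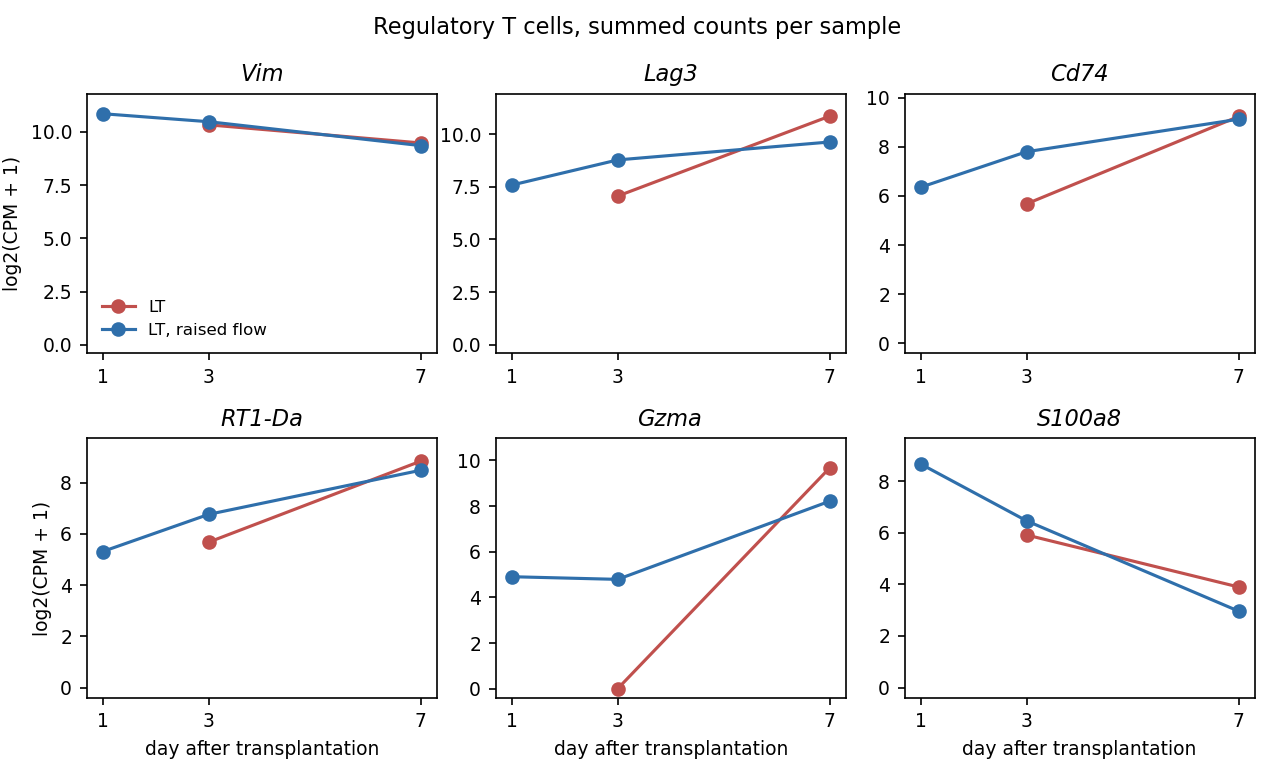
Level in log2(CPM + 1) (vertical axis) of 6 genes in the summed regulatory T cells of each sample against the day after transplantation; LT day 1 had too few cells. Vim and S100a8 lie lower and Lag3, Cd74, RT1-Da and Gzma higher at day 7 than at day 1 of raised flow.

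Raised flow and LT were compared with the day as a factor in the same 5 samples. Day 1 had the raised-flow sample alone, so the fitted difference rests on days 3 and 7, with 2 samples per group. Of 5381 genes, 14 were called (0.26%), 3 higher (0.0558%) and 11 lower (0.204%), while DESeq2 called 1. None of the 16 tested regulatory T cell genes was among them by edgeR, with 1 at an unadjusted p under 0.05, Tnfrsf4 (0.68 ± 0.33, adjusted p = 0.991). Il2ra differed by -0.02 ± 0.29 and Ctla4 by 0.30 ± 0.32. The called genes whose groups did not overlap, raised flow day 1 included, were Cthrc1, Igfbp4, Col6a2, Serpinh1 and Gadd45g. All were lower, and the first 4 are genes of fibroblasts and matrix. Serpinh1, a collagen chaperone, was at 224 and 16.2 CPM in LT days 3 and 7 and 12.9, 13.3 and 14.5 CPM in raised flow, so LT day 3 alone set it apart. In that sample the 10 fibroblast markers held 29.6 UMIs per 10000, against 0.852 to 3.22 in the other 4 sums. Without LT day 3 the comparison could not be fitted. Of 2 tested B cell markers 1 was called lower. Summed over 9 B cell markers, LT day 7 held 6.6 UMIs per 10000, against 0.092 to 1.0 in the other 4 sums. The 3 genes called higher were Plvap (4.06) and Tm4sf1 (3.83), both known from endothelium, and Cxcl9 (3.06). Their groups overlapped, and raised flow day 7 was highest, at 79.2, 134 and 97.6 CPM against at most 14.2 CPM elsewhere. There the 9 endothelial markers held 1.53 UMIs per 10000, against 0.0653 to 0.179 in the other 4 sums.

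The sham samples held 15 regulatory T cells, with 3, 5 and 7 each, and none reached the minimum of 10, so no gene comparison with sham could be made at that minimum. Of the 15 cells, Il2ra had a UMI in 6 (40.0%, interval 19.8 to 64.3%), Tnfrsf9 in 8 (53.3%) and Capg in 8. Mki67 or Top2a had a UMI in 2 of 15 (13.3%, interval 3.74 to 37.9%). Ikzf2 and Lrrc32 had a UMI in 0 of 15, which allows up to 20.0% of cells with a UMI, above the 9.2% and 7.99% seen in raised flow, so a difference was not detectable at this depth. Lag3 was seen in 1 of 15 (6.67%, interval 1.19 to 29.8%). In the transplanted samples its share was 16.7%, 32.3% and 62.3% on days 1, 3 and 7 of LT and 27.7%, 53.8% and 53.8% on those days of raised flow. The 15 sham cells came from 3 samples, with Lag3 in 0 of 3, 1 of 5 and 0 of 7, and the difference from sham was not tested. The median depth of the sham cells was 2318, 3020 and 2831 UMIs, below the 2952 to 5156 UMIs of the transplanted samples in all but sham 2. With no minimum of cells, 5 of 2745 genes were called between both transplanted groups and sham.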

How the data were processed

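For all 20 libraries the authors deposited raw UMI counts per gene and barcode, not normalized and with empty barcodes included. The matrix headers name Cell Ranger 4, while the submitters' processing notes name Cell Ranger 5.0.1 and Seurat 3.2.0. Build and annotation are not given in the sources used here, so no coordinates are printed. A library of raised flow day 3 was not used here.

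Cells were barcodes with over 400 and below 6000 detected genes, mitochondrial UMIs below 25% and hemoglobin UMIs below 3%. Doublets were scored with scanpy 1.11.5, and cells above the 92.5th percentile were kept in the main values and removed in an alternative. They were 27 of the 579 regulatory T cells. Counts were summed per sample and class and tested with edgeR 4.0.16 (quasi-likelihood, TMM, filterByExpr, adjusted p under 0.05); DESeq2 1.42.0 was an alternative. The SE is the log2 difference over the root of the F statistic. Both classes of a pair came from the same sample, which is why the sample was a block. Shares were compared by exact two-sided permutation over samples.

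The members, gene lists and tests were chosen with earlier results of these data known. Named genes are the regulatory T cell list, called members of the other lists or those with most UMIs, Crem, and up to 10 genes each way with the largest difference that moved alike in every sample or did not overlap, of which 1 is not reported here. On simulated counts for 5821 genes, the regulatory against CD4 fit recovered 78% of genes changed by log2 1 and 100% of those changed by log2 2, with 5 false calls of 183. The day fit recovered 1% and 36%, and the flow fit 15% and 80%. The simulated sums were drawn from a pooled profile with a fixed spread, without differences between samples or RNA of other cells. The rates therefore hold for that setting and do not give the power or error rate of the tests on the real sums.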

Additional observations from a re-analysis of the deposited data

Results flagged for a closer look

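Foxp3, Cd3 and Il17a were found together in 10 of 163 Il17a-positive Cd3-positive cells at LT day 7 (6.13%) and in 7 of 88 at raised flow day 7 (7.95%), against 0 of 42 in sham. Over all samples it was 21 of 438 (4.79%), and the 42 cells of sham are too few to tell 0 from these shares. The other samples held 0 of 18 at LT day 1, 2 of 20 at LT day 3, and 1 of 55 and 1 of 52 at raised flow days 1 and 3. These cells lie outside the rule for regulatory T cells. At LT day 3, 4 of 6548 barcodes removed for hemoglobin held Foxp3 and Cd3 RNA (0.0611%). The 68 such barcodes of sham, with 0, are too few to compare.

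The difference between regulatory and conventional CD4 T cells itself differed between raised flow and LT for 18 of 5962 genes (0.302%), all lower under raised flow. Fibroblast markers moved with it: 3 of 5 tested (Lum, Col3a1 and Col1a1) were among the 18 and all 5 had an unadjusted p under 0.05, with a median of -6.17, and 3 of 11 tested genes of carried-over RNA were lower. Summed fibroblast markers were at 29.6 UMIs per 10000 in the regulatory and 8.29 in the conventional cells of LT day 3, and at 0.852 to 3.22 against 10.9 to 52.2 in raised flow. Their part in the result was not tested. None of the 18 tested regulatory T cell genes was called by edgeR, with 0 at an unadjusted p under 0.05. This test was added after seeing the data. With doublet-scored cells removed, edgeR called 0 genes (232 at an unadjusted p under 0.05), and without LT day 3 it called 0 (183 at an unadjusted p under 0.05).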

How the results depend on the processing

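Depth, few cells and 1 residual degree of freedom limit the day and flow comparisons, and the 15 sham cells limit every comparison with sham. Shares past the threshold: none, under any setting. The LT minus sham difference turned positive as a percent of all cells (0.176 points) and with at least 2 Foxp3 UMIs (0.091 points), and ranged from -1.60 to 0.419 points when 1 sample was left out (0.186 without LT day 1, 0.419 without LT day 7). It was -1.19 points without the hemoglobin limit. By Foxp3 CPM, LT lay below sham and below raised flow with no overlap (differences of -6.68 and 5.96 CPM, exact p = 0.1 each). Raised flow minus sham was 0.0327 points after thinning, -0.711 CPM by Foxp3 CPM, and 0.697 to 2.35 points when 1 sample was left out. Both groups minus sham was -0.329 points after thinning, -3.69 CPM by Foxp3 CPM, -0.351 points with libraries as samples, and 0.0801 to 1.05 points when 1 sample was left out. Raised flow minus LT was 1.03 to 3.07 points when 1 sample was left out, and 1.80 points (exact p = 0.25) with the replicate block by day. It was 2.32 points with libraries as samples (permutation p = 0.0522, the lowest of any setting), 0.724 after thinning and 0.931 with at least 2 Foxp3 UMIs.

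For regulatory against CD4 the 200 calls became 510 with no filter, 62 without cells holding other markers, 62 after thinning, 1130 and 589 against all Foxp3-negative and CD8 T cells, and 64 to 259 when 1 sample was left out (80 without LT day 7, 114 without raised flow day 3, 64 without raised flow day 7). Without the replicate block there were 29. Other settings gave 134 to 289. Gzma turned to -2.72 and -3.71 against all Foxp3-negative and CD8 T cells and to -0.44 without Cd8-positive cells. Cd27 (-0.18) and Cd40lg (1.36) turned against CD8 T cells, and Crem was -0.084 without cells holding other markers.

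For raised flow against LT the 14 calls became 1 by DESeq2, 27 with no filter, 32 without doublets, 1 after thinning, 23 after subtracting empty-barcode RNA, 2 without Cd8-positive cells and 1 without raised flow day 1. By edgeR there were 0 with libraries as samples (69 at an unadjusted p under 0.05), 0 with no minimum of cells (162) and 0 without the replicate block (184). For day 7 against day 1 the 28 calls became 2 by DESeq2, 6 after thinning, 17 after subtraction, where Mgp turned to 6.57, 5 with no minimum, 5 without Cd8-positive cells, and by edgeR 0 with libraries as samples (177 at an unadjusted p under 0.05). Other leave-outs, and the exclusion of cells with other markers, could not be fitted. For the 18 genes of the flow by class test, 11 were called by DESeq2, 81 with no filter, 0 without doublets, 3 without cells holding other markers, 4 after thinning, 5 with libraries as samples and 0 to 30 when 1 sample was left out. With no minimum of cells the sham comparisons called 1, 4 and 5 genes for LT, raised flow and both, and 0 to 2, 0 to 9 and 0 to 15 when 1 sample was left out. The transplanted against sham test of the class difference could not be fitted. The cause of these changes was not tested.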
